A study of Mus musculus with 69 samples.

Results

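Transcripts of 9 genes grouped as targets of the tumour suppressor p53 or of the DNA damage response were followed in mouse lung: Cdkn1a, Mdm2, Gadd45a, Gadd45b, Trp53inp1, Bax, Ccng1, Sesn2 and Btg2. Members were taken by name, as the array probes whose transcript accession belongs to 1 of these symbols. The list itself was chosen with earlier results of these data known. All 9 of 9 were found, on 15 probes, among 17628 genes that could be tested. Each gene is given as a log2 ratio of lung RNA to a common reference RNA, taken as the median where it had several probes, so a value of 0 means the same signal in the lung as in the reference, and levels of different genes are not compared here.

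The lungs came from 69 female C57BL/6 mice that were 5 to 7 weeks old on arrival and were acclimatised for 1 to 3 weeks, with 1 mouse per array. Each mouse received a single intratracheal instillation, a deposit into the windpipe, of titanium dioxide nanoparticles or of the vehicle alone. The particles were NRCWE-001, which is unmodified and carries no charge, and NRCWE-002, a modified and positively charged form, each at 18, 54 or 162 µg. Lungs were taken at day 1 or day 28, which gave 14 groups of 5 mice, except for 4 vehicle mice at day 28. The particles were dispersed in water with 2% serum, and the controls are described as vehicle only in the study's text and as water in the sample titles. No transgene or deletion is named for these mice. Because whole lung was used, fewer cells of a type and less RNA per cell cannot be told apart. Markers that define the tissue, such as the surfactant gene Sftpc, were well above background on all 69 arrays.

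p53 is a transcription factor that is held at a low level by Mdm2, a ubiquitin ligase that marks it for destruction and is itself a p53 target. After DNA breaks or other stress, kinases free p53 from Mdm2, and p53 then raises genes that halt the cell cycle, repair DNA or start cell death. Several of these genes are also raised by other stress and growth pathways, so a change in 1 of them is not specific to p53.

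All member probes were well above background on all 69 arrays. The correlation between arrays across genes ran from 0.777 to 0.991 with a median of 0.960, and 4 arrays had a median below 0.90. These were the 3 arrays of slide 4, which held the replicate 2 lungs of all 3 doses of NRCWE-002 at day 28, and the replicate 2 lung of NRCWE-001 at 18 µg and day 1. Arrays were printed 4 to a slide, the 69 arrays lay on 18 slides, and the main values that these 4 arrays moved are also given without them.

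Promoter windows of 250 bases before and 50 bases after the start of transcription were available from RefSeq (GRCm38.p6) for 8 of the 9 members. The windows were searched on both strands for the p53 half-site, the 10-base unit that p53 binds in pairs. At least 1 match was held by 5 members, in 5 of their 9 windows, against 8.4% of all 32851 promoter windows. The matches were Cdkn1a with GGACTAGCTT and GAACATGTCT, Mdm2 with GAACTTGCCT, Gadd45a with GGGCTAGCCC, Bax with AGGCAAGCTT and Ccng1 with GGGCAAGCCT. Cdkn1a had 2 windows, and its matches lay in the first, while the second held none and is not printed. The windows of Gadd45b, Sesn2 and Btg2 held no match, and that of Btg2 held the cAMP response element TGACGTCA, which 1.8% of all windows hold. A match describes letters in a window and does not show binding. The 250 bases before the start are printed for Cdkn1a (first window), Mdm2 and Btg2, with the matches in capitals. Cdkn1a was the member that differed most from vehicle and Mdm2 the one that moved least, and the window of Btg2 holds the other element. Whether a half-site goes with a change was not tested. The printed bases lie at chr17:29090729-29090978 on the plus strand, chr10:117710759-117711008 on the minus strand and chr1:134079156-134079405 on the minus strand.
Cdkn1a: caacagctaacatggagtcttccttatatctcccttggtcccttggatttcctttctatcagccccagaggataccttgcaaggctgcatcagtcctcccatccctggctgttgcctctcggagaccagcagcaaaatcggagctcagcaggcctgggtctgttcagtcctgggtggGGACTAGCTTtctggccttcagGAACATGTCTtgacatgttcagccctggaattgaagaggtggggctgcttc
Mdm2: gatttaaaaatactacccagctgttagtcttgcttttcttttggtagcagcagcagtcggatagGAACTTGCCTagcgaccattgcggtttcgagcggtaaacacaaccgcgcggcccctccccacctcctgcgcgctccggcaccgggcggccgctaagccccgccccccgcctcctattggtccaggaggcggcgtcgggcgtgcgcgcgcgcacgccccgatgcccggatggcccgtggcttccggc
Btg2: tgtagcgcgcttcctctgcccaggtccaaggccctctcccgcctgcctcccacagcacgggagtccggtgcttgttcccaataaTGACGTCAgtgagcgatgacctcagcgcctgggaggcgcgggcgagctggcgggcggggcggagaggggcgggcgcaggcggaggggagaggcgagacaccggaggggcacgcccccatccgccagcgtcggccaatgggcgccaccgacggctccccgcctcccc

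The first comparison asked whether instilled particles changed the members at each dose and day. No member passed the test at any dose, but Cdkn1a lay higher than vehicle in all 12 dose groups, by 0.07 to 0.83 on the log2 scale, a sign that 2 of the 12 differences did not keep when arrays were also scaled to 1 spread, where 18 µg at day 28 gave -0.12 with NRCWE-001 and -0.42 with NRCWE-002. All 6 dose groups of a day were set against the same vehicle lungs, so the 12 signs and the counts over dose groups are not independent of each other. The other 8 members stayed within 0.52 of vehicle on that scale. Across the 9 members and 12 dose groups there were 108 comparisons, of which 0 passed an adjusted p of 0.05 in limma, with Benjamini-Hochberg adjustment over all genes, and the smallest adjusted p was 0.157. At an unadjusted p under 0.05 there were 18, or 16.7%, against 5.98% of the comparisons of all genes. The median of the 9 members ran from 0.00 to 0.20 over the 12 dose groups, and that of all genes from -0.01 to 0.01.

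By dose group, the members at an unadjusted p under 0.05 at 18, 54 and 162 µg were 3, 0 and 1 for NRCWE-001 at day 1, against 4.91%, 4.55% and 7.07% of all genes. For NRCWE-002 at day 1 they were 1, 2 and 3, against 2.97%, 5.83% and 8.94%. At day 28 they were 1, 1 and 2 for NRCWE-001, against 8.16%, 2.9% and 8.63%, and 1, 2 and 1 for NRCWE-002, against 6.08%, 4.96% and 6.71%. Cdkn1a accounted for 8 of the 18 and Btg2, Ccng1 and Gadd45b for 3 each. The test of any dose effect, a moderated F over the 3 doses of a particle and day, called 0 of 9 members in each of the 4 series, where it called 0.698% of all genes for NRCWE-001 at day 1, 0.477% at day 28, 0.823% for NRCWE-002 at day 1 and 0% at day 28.

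Cdkn1a encodes p21, an inhibitor of cyclin-dependent kinases that halts the cell cycle. In vehicle lungs at day 1 its log2 ratios were -1.65, -2.23, -1.85, -2.32 and -1.70, and at day 28 they were -2.16, -1.95, -1.77 and -2.03. With 162 µg of NRCWE-002 at day 1 they were -0.92, -1.41, -0.88, -1.31 and -1.30. Every lung of that group lay above every vehicle lung, a separation that 3.55% of all genes showed upward in this comparison. The group means of -1.16 ± 0.24 (SD, n = 5) and -1.95 ± 0.31 (SD, n = 5) differed by 0.79 with a standard error of 0.25 and a 95% interval of 0.29 to 1.29, a 1.73-fold higher ratio. The limma adjusted p was 0.157, where 0.596% of all genes were called. A 2-sided exact permutation test of the group labels gave p = 0.00794, and 0.0635 after Benjamini-Hochberg adjustment over the 12 dose groups. The first is the smallest that 5 against 5 allows and follows from the separation of the groups. This test was run for Cdkn1a alone among the members, so its adjustment does not cover the others.

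The other doses of NRCWE-002 at day 1 gave 0.34 at 18 µg and 0.73 at 54 µg (standard error 0.25 for each). The lungs at 54 µg read -1.20, -1.72, -0.70, -1.31 and -1.18, of which 1 lay within the vehicle range. At 18 µg the lungs lay between -1.77 and -1.42 and overlapped with vehicle. NRCWE-001 at day 1 gave 0.62 at 18 µg, 0.07 at 54 µg and 0.46 at 162 µg, so its differences did not follow the order of the doses. The value at 18 µg drew on the array that stood apart, which read -0.42 against -2.24 to -1.13 in the other 4 lungs of its group, and it was 0.39 without that array.

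At day 28 the lungs given 54 µg of NRCWE-001 read -0.87, -1.23, -1.05, -1.66 and -1.60, and those given 162 µg of NRCWE-002 read -1.18, -0.25, -1.72, -1.36 and -1.23. Both groups lay wholly above the vehicle lungs of that day, as 0.584% and 0.414% of all genes did upward in the 2 comparisons. The differences from vehicle were 0.70 (95% interval 0.17 to 1.23, adjusted p = 1.00 in limma, where 0% of genes were called) and 0.83 (0.30 to 1.36, adjusted p = 0.492, where 0.00567% were called). The exact permutation p was 0.0159 for each, the smallest that 5 against 4 allows, and 0.0635 after adjustment over the 12 dose groups of Cdkn1a alone. The lung at -0.25 was on slide 4, and without it the difference for NRCWE-002 at 162 µg was 0.61. The differences at the other doses of NRCWE-002 were 0.58 at 18 µg and 0.54 at 54 µg, and 0.29 and 0.37 without the slide 4 arrays. NRCWE-001 at 162 µg, with lungs at -0.82, -1.78, -1.84, -1.18 and -0.98, stood 0.66 above vehicle, or 1.19 when arrays were scaled to 1 spread (adjusted p = 0.915 in limma), and at 18 µg 0.23 above it.

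**Figure D1:**
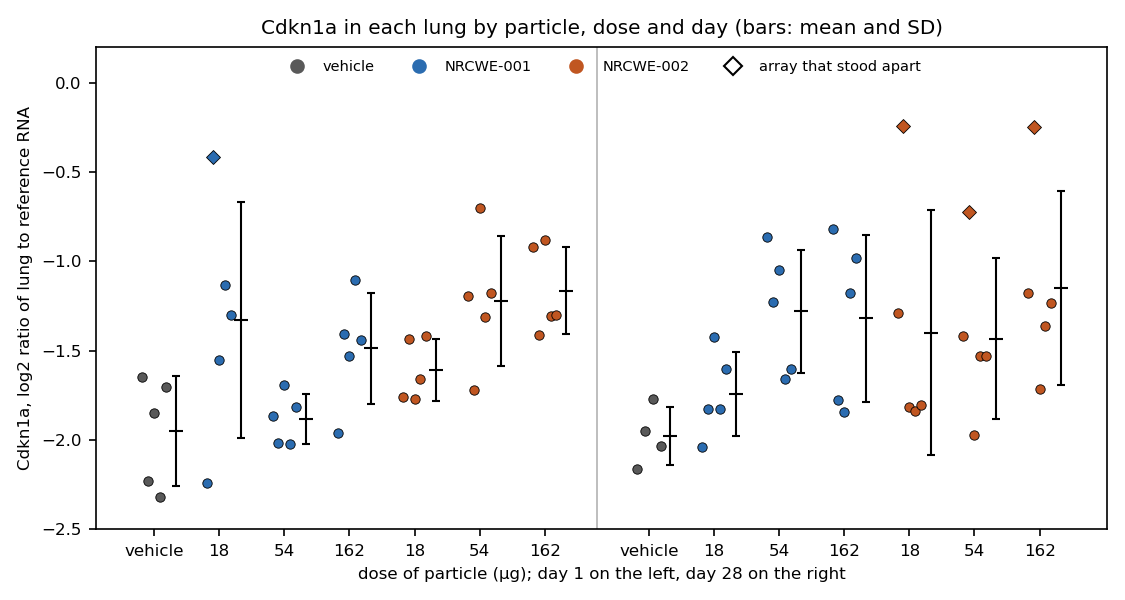
Cdkn1a in every lung, as the log2 ratio of lung to reference RNA (vertical axis), by particle dose in µg (horizontal axis), with day 1 on the left and day 28 on the right; bars give the group mean and SD, and diamonds mark the 4 arrays that stood apart. Vehicle lungs lie at or below -1.65, while 19 of 30 exposed lungs at day 1 and 21 of 30 at day 28 lie above the highest vehicle lung of their day.

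Over both days Cdkn1a was thus higher in most exposed lungs, with none of the exposed lungs below the lowest vehicle lung of its day. In the plot of Cdkn1a by group, the exposed lungs covered a wider range than the vehicle lungs. There were, however, 30 exposed lungs on each day, against 5 vehicle lungs at day 1 and 4 at day 28. The exposed lungs also came from several dose groups with different means, so their range does not show more spread within groups. The mean of the 12 exposed groups stood 0.55 above the mean of both vehicle groups (standard error 0.14, adjusted p = 0.172 in limma, 0.0284% of all genes called), and 0.47 above it without the 4 arrays (adjusted p = 0.0986). This contrast was added after the single doses had been seen. It passed the threshold in limma with the slide as a random block, at 0.52 with an adjusted p of 0.0240 (77 of all genes called). It also passed with the scan day as a block, at 0.52 with an adjusted p of 0.0373 (72 called). With the slide as a fixed block it missed the threshold, at 0.51 with an adjusted p of 0.0645 (35 called). It also missed it in limma with median centring in place of loess, at 0.57 (adjusted p = 0.351). When arrays were scaled to 1 spread it was 0.41 (unadjusted p = 0.271 in limma, 0 genes called). Vehicle lungs were present on 9 slides, with 1 on each, and the exposed lungs averaged above the vehicle lung of their own slide on 8 of the 9. There, 21 of 26 exposed lungs lay above it, with a median difference over slides of 0.54 and a range from -0.38 to 1.03. For the other members, the exposed lungs averaged above the vehicle lung on 3 to 8 of the 9 slides.

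For the highest dose of NRCWE-002 at day 1, the call on Cdkn1a depended on which arrays were fitted and on how the slide was entered. With the slide as a random block the difference was 0.76 (adjusted p = 0.0453 in limma), and as a fixed block 0.71 (adjusted p = 0.139). In the fit of that comparison's own groups alone, the difference of 0.79 had an adjusted p of 0.0115, the 54 µg group had 0.73 with an adjusted p of 0.0458, and the dose effect had an adjusted p of 0.0195. Without the 4 arrays that stood apart, none of which was in these groups, the difference of 0.79 had an adjusted p of 0.0150. Cdkn1a varied by a pooled SD of 0.40 within groups, more than 94.9% of all genes. The mean of 9 measured neutrophil markers was 1.80 at that dose against 1.41 in vehicle, with lungs from 1.51 to 2.03 and from 1.19 to 1.72. Of these, 7 were well above background on all arrays, and across the 69 arrays the correlation of their mean with Cdkn1a was 0.03, and 0.17 without the 4 arrays. The macrophage markers Siglecf (-0.49, -1.04 and -0.84 at the 3 doses) and Ear1 (-0.57, -1.47 and -1.10) both had a dose effect with NRCWE-002 at day 1 (adjusted p = 0.0437 each in limma). The mean of the 10 measured macrophage markers, all well above background on all arrays, was 2.98, 2.77 and 2.99 at the 3 doses against 3.22 in vehicle, with lungs from 2.49 to 3.43 and from 2.83 to 3.46, and its correlation with Cdkn1a across the 69 arrays was -0.11. The part of either cell type in the difference was not tested. With NRCWE-001 at 162 µg and day 1, where 0.579% of all genes were called, 2 of 9 neutrophil markers were called higher (Cxcr2 by 0.69 and Csf3r by 0.80). Of 10 macrophage markers, 3 were called lower (Fabp1 by -1.74, Siglecf by -0.92 and Ear1 by -1.30). The mean of all measured neutrophil markers there was 1.89 against 1.41 in vehicle, with exposed lungs from 1.37 to 2.39. That of the macrophage markers was 2.75 against 3.22, with exposed lungs from 2.29 to 3.06.

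**Figure D2:**
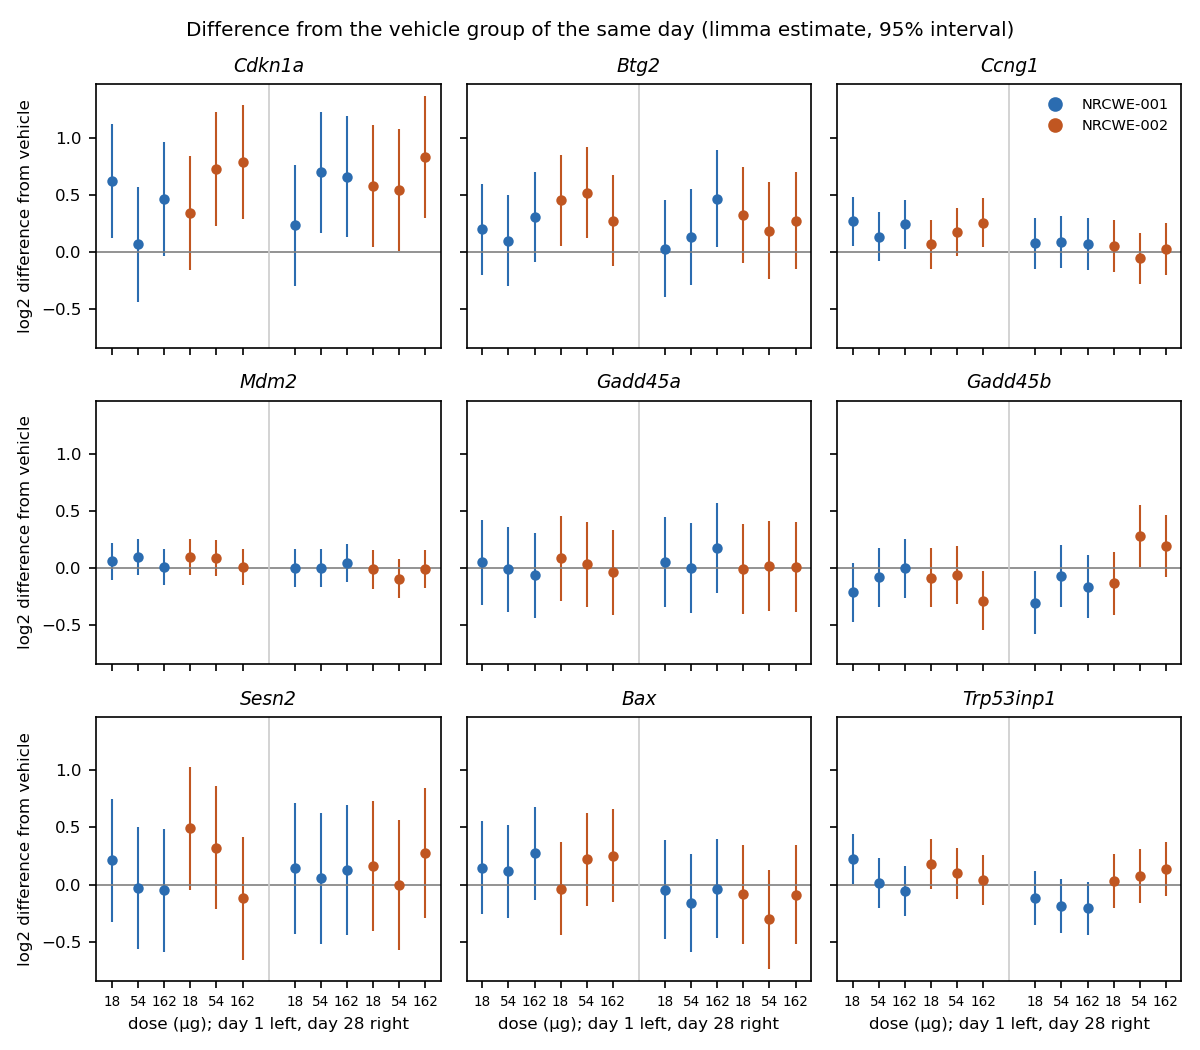
Difference of each member from the vehicle group of the same day on the log2 scale (vertical axis), by dose in µg (horizontal axis, day 1 left and day 28 right of each panel), as limma estimates with 95% intervals. The 12 Cdkn1a estimates lie between 0.07 and 0.83, while those of Mdm2 lie between -0.09 and 0.10.

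Btg2 and Ccng1 are the other members tied to the cell cycle. Btg2 is an antiproliferative gene that responds to p53 and to growth factors, and Ccng1 encodes cyclin G1, which recruits a phosphatase to Mdm2. Btg2 differences ran from 0.03 to 0.52, with 3 of 12 at an unadjusted p under 0.05 and the smallest adjusted p at 0.502. With NRCWE-002 at day 1, Btg2 read 1.13, 0.99, 1.11, 1.15 and 0.79 at 18 µg and 1.29, 0.44, 1.40, 0.84 and 1.53 at 54 µg, against 0.66, 0.62, 0.38, 0.87 and 0.36 in vehicle lungs. Both groups overlapped with vehicle by 1 or more lungs. The differences of 0.45 and 0.52 (standard error 0.20 for each) had adjusted p-values of 0.999 and 0.651 in limma, where 0% and 0.0624% of all genes were called. Ccng1 differences ran from -0.06 to 0.27, and the 3 at an unadjusted p under 0.05 were all at day 1: 0.27 and 0.24 for NRCWE-001 at 18 and 162 µg, and 0.26 for NRCWE-002 at 162 µg. Its exposed lungs averaged above the vehicle lung on 8 of 9 slides, as those of Btg2 did, with medians of 0.17 and 0.31. This count was 7 for Bax, 5 for Mdm2, Gadd45a and Sesn2, and 3 for Gadd45b and Trp53inp1. The same share over all genes is not given here. With NRCWE-002 at 54 and 162 µg and day 28, Ccng1 was higher than the vehicle lung on 0 of 2 slides each.

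Mdm2, the feedback member, moved least. Its 12 differences lay between -0.09 and 0.10, the 95% intervals of all of them lay within -0.26 and 0.26, and none had an unadjusted p under 0.05. At 162 µg of NRCWE-002 and day 1, where Cdkn1a stood 0.79 higher, Mdm2 read -0.82, -0.68, -0.63, -0.59 and -0.47 against -0.56, -0.66, -0.68, -0.72 and -0.64 in vehicle lungs. The vehicle values lay inside the range of the exposed ones, and the difference was 0.02 (95% interval -0.14 to 0.17). Mdm2 rests on 2 probes whose values had a correlation of -0.32 across the 69 arrays and of 0.02 without the 4 arrays that stood apart, so the probes did not follow each other. The correlation of Mdm2 with Cdkn1a across the arrays was 0.26, and 0.17 without the 4 arrays.

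Gadd45a and Gadd45b encode small stress sensors that bind proliferating cell nuclear antigen and stress kinases, and Sesn2 encodes sestrin 2, which limits growth signalling under stress. Gadd45a differences lay between -0.06 and 0.18 and those of Sesn2 between -0.12 and 0.49, with 0 of 24 at an unadjusted p under 0.05. The largest Sesn2 difference, at 18 µg of NRCWE-002 and day 1, had a 95% interval from -0.05 to 1.03. Gadd45b lay lower than vehicle by 0.28 with 162 µg of NRCWE-002 at day 1, where the lungs read 0.38, 0.24, 0.35, 0.65 and 0.41 against 0.91, 0.62, 0.66, 0.70 and 0.55 in vehicle (adjusted p = 0.480 in limma). Of these exposed lungs, 4 lay below every vehicle lung. It also lay 0.30 lower with 18 µg of NRCWE-001 at day 28 (adjusted p = 0.545, 0.193% of all genes called) and 0.28 higher with 54 µg of NRCWE-002 at day 28 (adjusted p = 0.970). These 3 groups all overlapped with vehicle. Gadd45g, the relative of both genes that lies outside the list, had a dose effect with NRCWE-002 at day 1 (adjusted p = 0.0224 in limma), with differences of -0.12, 0.63 and 0.97 at the 3 doses (standard error 0.25).

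Bax, which opens the mitochondrial membrane in cell death, differed from vehicle by -0.30 to 0.27, and Trp53inp1, a nuclear and autophagy protein that promotes p53 activity, by -0.21 to 0.23. None of the Bax differences and 1 of those of Trp53inp1 (0.23 with 18 µg of NRCWE-001 at day 1) had an unadjusted p under 0.05. Vehicle lungs at day 28 read 0.45 higher than at day 1 for Bax and 0.17 higher for Mdm2 (-0.00 and -0.10 when arrays were scaled to 1 spread), at unadjusted p-values of 0.0420 and 0.0465 and adjusted p-values of 0.837 in limma for each, where 0% of all genes were called and 5.75% had an unadjusted p under 0.05. The vehicle lung of slide 6 read 0.18 for Bax and -0.21 for Mdm2, while the highest of the other 3 read -0.87 and -0.49, and without it the differences were 0.18 for Bax and 0.08 for Mdm2.

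The second comparison set the charged against the unmodified particle at the same dose and day. Over the 3 doses at day 28, 2 of 9 members were called, both higher with NRCWE-002, where 4.75% of all genes were called. These were Gadd45b by 0.29 (95% interval 0.14 to 0.44, adjusted p = 0.0167 in limma) and Trp53inp1 by 0.25 (0.12 to 0.38, adjusted p = 0.0161). The direction turned to -0.04 and -0.05 when arrays were centred on their median in place of loess. In that setting the median of all genes was -0.08, and relative to it the 2 genes stood at 0.03 each. At day 1, 0 of 9 members were called, with 0.125% of all genes, and the largest differences were 0.24 for Cdkn1a (95% interval -0.05 to 0.52) and 0.21 for Btg2 (-0.02 to 0.44). At matched single doses, 6 comparisons of the particles were made for each member, and 0 of these 54 were called, where 0%, 0.13% and 0% of all genes were called at 18, 54 and 162 µg and day 1, and 0.119%, 0.0284% and 0% at day 28. The largest was Cdkn1a at 54 µg and day 1, with NRCWE-002 higher by 0.66 (95% interval 0.16 to 1.16, adjusted p = 0.582 in limma).

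Gadd45b in the 15 lungs given NRCWE-002 ran from -0.13 through a median of 0.55 to 1.17, and in the 15 given NRCWE-001 from -0.15 through 0.30 to 0.56. The 4 vehicle lungs ran from 0.14 to 0.66 with a median of 0.49, and all groups overlapped. Trp53inp1 ran from 1.05 through 1.38 to 1.74 with NRCWE-002 and from 0.74 through 1.17 to 1.47 with NRCWE-001, with vehicle at a median of 1.34. Averaged over doses, NRCWE-001 stood -0.18 and NRCWE-002 0.11 from vehicle for Gadd45b, and -0.17 and 0.08 for Trp53inp1, and none of these differences was called (0.0284% of all genes with the unmodified and 0% with the charged particle). A 2-sided permutation test of the particle labels over the 30 lungs gave p = 0.0053 for Gadd45b and p = 0.0011 for Trp53inp1. It disregarded the slide on which a lung lay. It was run only for these 2 genes, which limma had already called on the same values, so it adds no separate support. By dose, the differences at 18, 54 and 162 µg were 0.17, 0.35 and 0.35 for Gadd45b and 0.15, 0.26 and 0.34 for Trp53inp1. At 162 µg the Gadd45b groups did not overlap, which was true upward of 0.25% of all genes, with 0.55, 0.69, 0.63, 0.82 and 0.52 against -0.01, 0.39, 0.30, 0.45 and 0.31 (adjusted p = 0.498 in limma).

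Particle and slide were laid out together at day 28. Of 11 slides with particle-exposed lungs of that day, 2 held both particles, and within these the Gadd45b difference was 0.02 and 0.17 and that of Trp53inp1 0.23 and -0.04. With the slide as a fixed block, the differences were 0.10 and 0.10 (adjusted p = 0.958 and 0.948), and 4 of all genes were called in that fit. With the slide as a random block they were 0.18 and 0.17 (adjusted p = 0.421 and 0.393). Without the 4 arrays that stood apart they were 0.20 and 0.21 (adjusted p = 0.0858 and 0.0594), and neither passed the threshold.

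**Figure D3:**
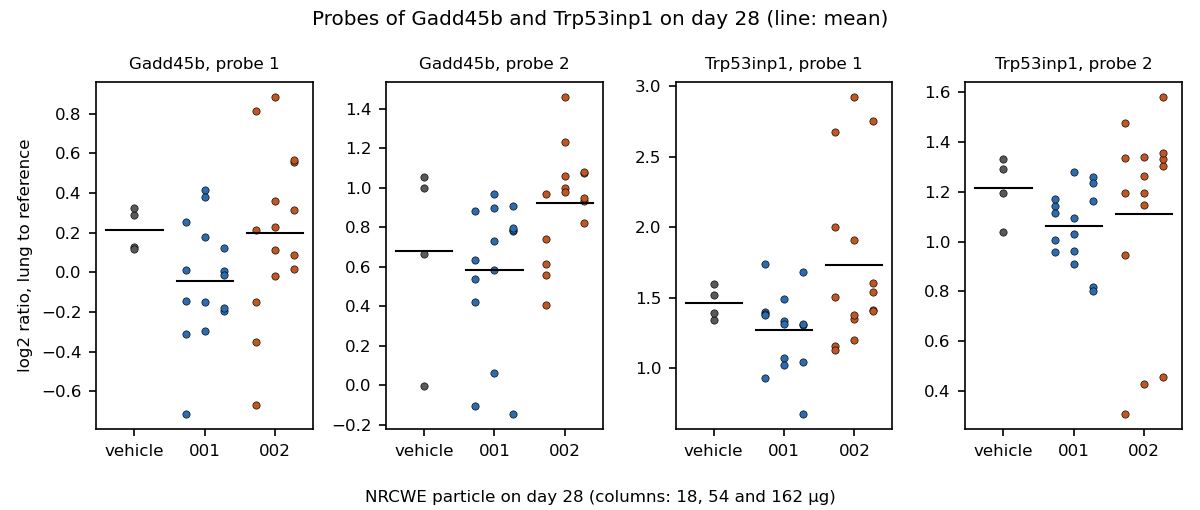
Log2 ratio of lung to reference RNA (vertical axis, a scale of its own in each panel) for each probe of Gadd45b and Trp53inp1 in the day 28 lungs, by vehicle and NRCWE particle, with the 3 doses of a particle as columns of points and a line at the mean. The 3 lungs of slide 4 are the highest points of Trp53inp1 probe 1, from 2.67 to 2.92, and the lowest of its probe 2 among the NRCWE-002 lungs, from 0.31 to 0.46.

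The probes of these 2 genes did not move alike. For Trp53inp1, probe 1 differed between particles by 0.46 (adjusted p = 0.0316 over all probes) and probe 2 by 0.05 (95% interval -0.13 to 0.22, adjusted p = 0.805), and the correlation of both probes was -0.21 across the 69 arrays and 0.58 without the 4 arrays that stood apart. The plot of the probes shows slide 4 at opposite ends of these 2 probes. For Gadd45b, the probes differed between particles by 0.24 (adjusted p = 0.161) and 0.34 (adjusted p = 0.0321), with a correlation of 0.36. The change at 162 µg did not differ between days beyond the test in any member, with 0% of all genes called for either particle. The largest member difference there was 0.48 for Gadd45b with NRCWE-002 (unadjusted p = 0.0138, adjusted p = 0.622 in limma).

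The slide carried much of the spread of the members within groups. It held 92.0% of the within-group sum of squares for Sesn2, 87.0% for Gadd45a, 81.9% for Mdm2 and 77.3% for Bax, against a median of 61.6% over all genes and 30.9% from the degrees of freedom alone. The shares were 51.8% for Gadd45b, 51.7% for Cdkn1a, 47.0% for Trp53inp1, 43.5% for Ccng1 and 43.4% for Btg2. Without the 4 arrays that stood apart, the share fell to 29.6% for Cdkn1a and 29.5% for Ccng1, near the 31.4% from the degrees of freedom alone, and was 81.6% for Sesn2, 82.3% for Gadd45a, 80.9% for Mdm2 and 78.5% for Bax, against a median of 55.6%. Sesn2 averaged 0.44 on slide 4 (0.29 to 0.64 over its 3 lungs) and at most -0.38 on any other slide. Gadd45a was lowest there, at -1.90, and highest on slide 11, at -0.72. Bax averaged 0.07 on slide 6, whose 4 lungs were 1 vehicle lung and 1 of each dose of NRCWE-001 at day 28, -0.31 on slide 4 and no more than -0.71 on the others. The plot by slide shows these 2 slides apart from the others.

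**Figure D4:**
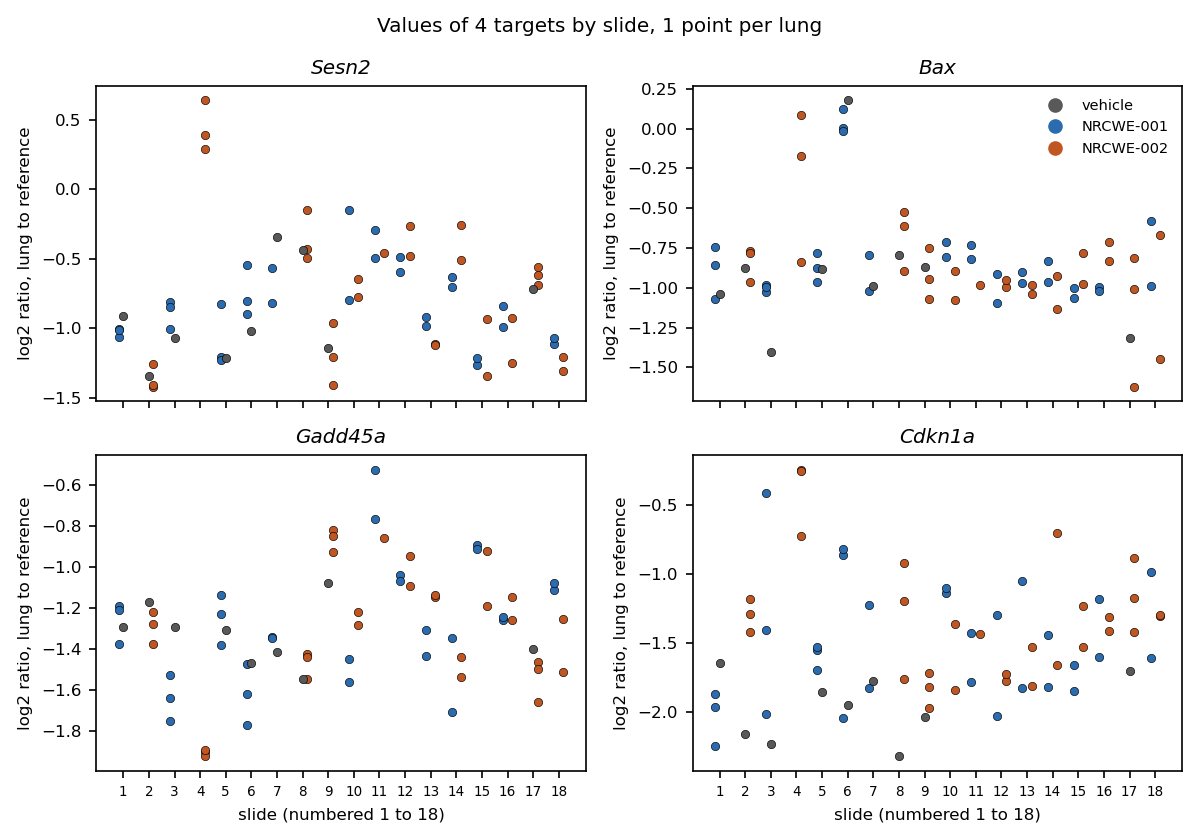
Log2 ratio of lung to reference RNA (vertical axis) for Sesn2, Bax, Gadd45a and Cdkn1a by slide (horizontal axis, slides numbered 1 to 18), with 1 point per lung coloured by particle. Slide 4 holds the 3 highest Sesn2 lungs, at 0.29 to 0.64, and slide 6 holds 4 Bax lungs between -0.01 and 0.18.

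Among the 36 pairs of members the correlation over the 69 arrays, which share slides and a reference, ran from -0.47 for Cdkn1a with Gadd45a to 0.52 for Mdm2 with Bax. Cdkn1a with Sesn2 had 0.44 and Trp53inp1 with Btg2 had 0.38. Without the 4 arrays that stood apart, the correlation was -0.25 for Cdkn1a with Gadd45a, 0.18 for Cdkn1a with Sesn2, 0.44 for Mdm2 with Bax and 0.43 for Trp53inp1 with Btg2. Among 17505 genes that are no member, the most like each of these members over the 69 arrays were Gm6498 for Cdkn1a (0.71, and 0.49 without the 4 arrays), Zfp987 for Gadd45a (0.82), Actr5 for Gadd45b (0.75), Foxp1 for Trp53inp1 (0.66), Pfdn6 for Bax (0.88), Cycs for Ccng1 (0.80) and Tob2 for Sesn2 (0.85).

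Btg2 was most like Dusp1, Egr1 and Nr4a1, with correlations of 0.71, 0.68 and 0.68. These belong to a list of 14 immediate early genes, which cells switch on within minutes of a stimulus without making new protein. Of these 14, 1 was called at a single dose and 3 had a dose effect, against 190 and 286 of all 17628 genes. At an unadjusted p under 0.05 were 23.8% of the 168 comparisons of the list with vehicle, against 5.98% of those of all genes. Over the 69 lungs Btg2 had a correlation of 0.73 with the mean of the 14 genes, and of 0.66 after group means were removed. The other 8 members had -0.09 to 0.21. Cdkn1a was the highest of these, at 0.21, and had 0.40 without the arrays that stood apart. Without those arrays Btg2 had 0.72, and the remaining members had -0.07 to 0.15. In vehicle lungs that mean was -1.06 at day 1 and -0.96 at day 28, and with 18 and 54 µg of NRCWE-002 at day 1, where Btg2 stood 0.45 and 0.52 higher, it was -0.53 and -0.55. Egr1 itself had a dose effect there (adjusted p = 0.0452 in limma), with differences of 1.42, 1.48 and 1.17 (standard error 0.36).

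**Figure D5:**
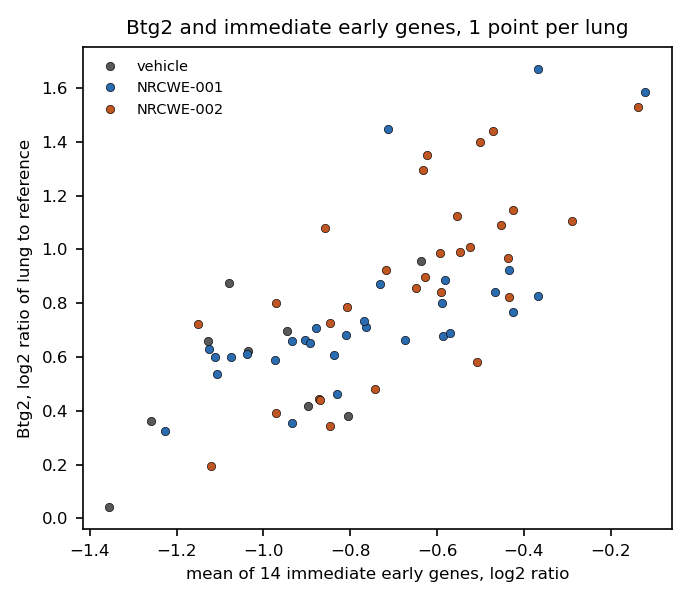
Btg2 (vertical axis) against the mean of 14 immediate early genes (horizontal axis), both as log2 ratios of lung to reference RNA, with 1 point per lung coloured by particle. Lungs with a higher mean of the immediate early genes had higher Btg2, with a correlation of 0.73 over 69 lungs that share slides.

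Other genes of the pathway were read from lists chosen with earlier results of these data known. Of 27 measured further p53 targets, 0 were called in any dose comparison, with 7.1% of 324 comparisons at an unadjusted p under 0.05 and medians over the list from -0.01 to 0.09, where the median of all genes ran from -0.01 to 0.01. Of 21 genes of p53 and damage signalling, 0 were called, with 3.97% of 252 comparisons at that unadjusted p, against 5.98% of those of all genes. Of 24 DNA repair genes, 0 were called at a single dose, with 9.72% of 288 comparisons at an unadjusted p under 0.05. Ung, which removes uracil from DNA, had a dose effect with NRCWE-002 at day 1 (adjusted p = 0.0385 in limma), with -0.05, 0.60 and 0.84 at the 3 doses. Among 15 relatives of the members, Gadd45g alone had a dose effect and 0 were called at a single dose, with 9.44% of 180 comparisons at an unadjusted p under 0.05. Among 13 targets of the stress factor Atf4, 1 was called, Atf3, itself a stress-induced transcription factor, which was higher by 1.00 with 162 µg of NRCWE-001 at day 28 (standard error 0.21, adjusted p = 0.0300), where Nr4a1 was higher by 2.06 (standard error 0.43, adjusted p = 0.0300) and 0.0454% of all genes were called. Among 13 proliferation genes, Mcm2, a subunit of the replication helicase, was higher at 162 µg and day 1 with both particles. The difference was 0.63 with NRCWE-001 (adjusted p = 0.0308 in limma, 0.579% of all genes called) and 0.64 with NRCWE-002 (adjusted p = 0.0290 in limma, 0.596% called). The share at an unadjusted p under 0.05 was 12.8% of 156 comparisons for the Atf4 targets and 8.97% of 156 for the proliferation genes. Over all genes, 190 of 17628 were called at a single dose and 286 had a dose effect.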

How the data were processed

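Lung RNA (Cy5) was hybridised with Universal Mouse Reference RNA (Cy3) on 2-colour Agilent arrays, without dye swap. The authors deposited scanner files of spot intensity, read with Agilent Feature Extraction (version not given), and a table of normalised log2 ratios. These deposited log2 ratios ran as lung over reference, with array medians from -0.0586 to -0.00264, and a correlation of 0.994 to 0.999 with loess ratios without background correction, so scale and direction are settled, and the exact centring is not. They served as an alternative. From the deposited intensity columns, median signals were background corrected (normexp, offset 50), loess normalised within arrays and kept where well above background on at least 4 arrays. Spots, then probes, of a gene were joined by their median. Of 41174 probes, 27479 (66.7%) matched a symbol through their accession. All 14 groups entered 1 limma fit (limma 3.58.1, R 4.3.3), called at an adjusted p below 0.05 over 17628 genes. In simulated data for NRCWE-002 at 162 µg and day 1, 84% of 50 genes changed by 0.8 were recovered among 17628. The changed genes were picked at random, and the simulated noise was independent between arrays, without slide effects or arrays that stood apart. That share is a check of the fit and does not give the chance of a call on a member. Permutation tests used scipy 1.17.1 and figures matplotlib 3.10.9. The number of arrays limits the precision. Members and gene lists were chosen with earlier results of these data known. Further genes were named when called in a dose test, at most 4 a list, or when among the 3 closest in correlation to a member. Results for some genes that this rule names are not reported here.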

Additional observations from a re-analysis of the deposited data

Results flagged for a closer look

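Within groups, the highest or lowest lung was set against its nearest neighbour by Dixon's gap test, which flags about 5% of groups by chance. Of 126 groups of a member, 12 (9.5%) went beyond it. Bax had 5, all of them the highest lung of a day 28 group: 0.18 in vehicle, 0.0012 and -0.0149 with 18 and 54 µg of NRCWE-001, all on slide 6, and -0.84 and 0.0844 with 54 and 162 µg of NRCWE-002, both on slide 4. Sesn2 read 0.29 in 1 lung given 54 µg of NRCWE-002 at day 28, also on slide 4, while the nearest other lung of its group read -1.12. Btg2 had 3 flagged lungs, each the highest of its NRCWE-001 group. They read 1.67 with 162 µg at day 1 (nearest lung 0.77), 0.89 with 54 µg at day 1 (nearest 0.66) and 1.58 with 162 µg at day 28 (nearest 0.92). The first of these lungs was also the flagged one for Trp53inp1, at 1.34. The remaining 2 were the lowest lungs of their groups, Mdm2 at -0.73 with 54 µg of NRCWE-002 at day 1 and Ccng1 at -1.002 in vehicle at day 28.

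In 2 cases every lung of a group lay on 1 side of its vehicle mean at day 1 and every lung on the other side at day 28. Gadd45b with 162 µg of NRCWE-002 stood at -0.28 at day 1 and 0.19 at day 28, and the test of that difference between days gave an unadjusted p of 0.0138 and an adjusted p of 0.622 in limma. Bax with 54 µg of NRCWE-002 stood at 0.22 and -0.30, a difference that was not tested. The day 28 vehicle mean for Bax included the slide 6 lung at 0.18. The other vehicle lungs of that day read -0.99 to -0.87 and the exposed lungs -0.98 to -0.84, so the change of side rested on that lung. The share of all genes with such a change of side was not counted. The differences between the particles at day 28, of 0.29 for Gadd45b and 0.25 for Trp53inp1, passed the test of the difference itself in limma (adjusted p = 0.0167 and 0.0161). Both missed it with the slide as a fixed block (0.958 and 0.948) or a random block (0.421 and 0.393), with the scan day as a block (0.888 and 0.855) and without the 4 arrays that stood apart (0.0858 and 0.0594).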

How the results depend on the processing

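Each of 17 counts of called members was recomputed under 13 alternatives. Of the 16 counts that were 0, 13 stayed at 0 under every alternative, and all 17 kept their value whenever 1 replicate was left out, from 2 to 2 for the particle difference at day 28 and from 0 to 0 for the others. That particle difference called 3 members with median centring in place of loess, all lower with NRCWE-002 (Mdm2 -0.27, Gadd45a -0.38 and Ccng1 -0.36), where Gadd45b stood at -0.0424 and Trp53inp1 at -0.0483. In that setting 371 genes were called higher and 4142 lower, against 380 and 457, and the median of all genes was -0.08. It called 0 members with scale normalisation between arrays, with the slide as a fixed or a random block, with the scan day as a block, in the fit of its own groups alone and without the 4 arrays that stood apart, the last chosen after seeing the data. Over all genes the called split was 363 higher and 823 lower with the deposited table, 186 and 345 with the scanner's processed signals, 317 and 155 without the 4 arrays, 90 and 154 with scale normalisation, 9 and 10 with the slide as a random block, 0 and 4 with it fixed and 0 and 5 with the scan day. The changes against vehicle with NRCWE-002 at day 1 gave 1 call with the slide as a random block, 1 without the 4 arrays and 2 in the fit of their own groups, and the dose effect there gave 1 in each of the last 2, all of them Cdkn1a. The exposed against vehicle contrast gave 1 call with the slide as a random block and 1 with the scan day as a block. Median centring shifted the median of all genes by -0.11 for the particle difference at 18 µg and day 1, by -0.12 at 162 µg and day 28, and by -0.13 for the day difference with NRCWE-002. The cause was not tested. No paired analysis was possible because the replicate numbers of the groups were given in the order of the samples and do not pair lungs across groups. The slide, which some lungs of different groups share, was used as the block instead, with the values above. The Cdkn1a difference at 162 µg of NRCWE-002 and day 1 ran from 0.38 (scale normalisation) to 0.91 over the alternatives, with adjusted p from 0.0115 to 1.00, and from 0.69 to 0.86 over the fits without 1 replicate. For NRCWE-001 at 162 µg and day 1 the difference of 0.46 was 0.14 with scale normalisation.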
